A study of Rattus norvegicus with 12 samples.

Results

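The rat choroid plexus was compared between the light and the dark phase for the genes of motile cilia. The members were named by symbol: CFAP126, DYNLRB2, FOXJ1, RSPH1, DNALI1, TEKT1, CETN2, TPPP3 and MORN5. The deposited tables list genes by Ensembl identifier alone, and symbols were paired with identifiers through the study's supplementary gene lists, which were held in part. Of these 9 genes, 5 could be paired (CFAP126, DYNLRB2, RSPH1, TEKT1 and CETN2), out of 32883 genes in each table. FOXJ1, the transcription factor that switches on the motile cilia program, DNALI1, a light intermediate chain of the inner dynein arms, TPPP3, a tubulin-binding protein, and MORN5, a MORN repeat protein, were not analysed here.

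The tissue came from 12 male Sprague-Dawley rats aged 9 weeks, kept on a light-dark cycle, with 1 library per rat. In the light group, 6 rats were sampled at ZT8 (zeitgeber time in hours), and in the dark group 6 rats at ZT20, so that both groups were taken 8 h after the start of their phase. All rats were anesthetized with xylazine and ketamine, and those of the dark group were sampled in darkness, with a red lamp lit at times. Whole choroid plexus tissue was used, which holds vessels, stroma and immune cells beside the epithelium, and in such bulk RNA fewer cells of a type and less RNA per cell cannot be told apart. Levels are given as TPM, a share of all transcripts that allows for their length, so that levels of different genes can be set side by side.

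A motile cilium is built on an axoneme of doublet microtubules around a central pair. Proteins inside the doublets brace them, dynein arms between the doublets generate the bending, and radial spokes link the doublets to the central pair. The cilium grows from a basal body, a modified centriole, by intraflagellar transport, in which motors carry building blocks to the tip and back. Choroid plexus epithelial cells carry tufts of cilia on the surface that faces the cerebrospinal fluid, and the ependymal cells that line the ventricles beside them carry motile cilia that move the fluid.

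The label of the tissue was checked against its markers. All 10 choroid plexus epithelium markers (TTR, KL, FOLR1, CLIC6, KCNJ13, OTX2, ENPP2, AQP1, IGFBP2 and SLC4A5) had an identifier, and their summed level was 270900 to 322100 TPM in light and 304100 to 328700 TPM in dark libraries. TTR, the transthyretin that this epithelium secretes, took 25.37 to 30.97% of the TPM of a library, with the lowest share in light replicate 2. Of the 6 ependyma markers (TMEM212, RARRES2, CD24, S100B, CCDC153 and MIA) only RARRES2 could be paired. The number of reads behind a value is not known from TPM, so the spread between rats served as the error throughout.

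Promoters of 4 of the 5 members were found in the RefSeq table (build GRCr8) by symbol, those of CFAP126, DYNLRB2, TEKT1 and CETN2. Shown are the 250 bases before the start of CFAP126, the member with the largest phase difference, and of TEKT1, a member of the same doublet microtubules whose difference did not pass the test. For DYNLRB2 and CETN2 the start lies inside the annotated span of the gene, and their windows are not shown. Capitals mark a match to GTTGCC, the core of the site that RFX factors bind.

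CFAP126: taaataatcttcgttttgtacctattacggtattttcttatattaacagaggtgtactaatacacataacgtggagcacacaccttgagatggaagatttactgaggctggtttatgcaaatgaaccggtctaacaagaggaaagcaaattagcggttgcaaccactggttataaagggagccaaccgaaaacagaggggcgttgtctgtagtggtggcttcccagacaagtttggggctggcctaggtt
TEKT1: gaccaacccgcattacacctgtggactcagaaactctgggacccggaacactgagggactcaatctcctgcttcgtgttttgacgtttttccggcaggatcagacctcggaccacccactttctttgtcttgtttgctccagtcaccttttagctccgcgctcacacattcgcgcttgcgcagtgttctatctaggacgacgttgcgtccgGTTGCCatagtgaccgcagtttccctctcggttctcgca

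The CFAP126 window lies at chr13:86058892-86059141 on the plus strand and the TEKT1 window at chr10:57479122-57479371 on the minus strand. RFX factors and the forkhead factor FOXJ1 are known regulators of ciliary genes, and E-boxes and D-boxes are elements that clock transcription factors bind. The 250 bases before the start of the 4 members were searched on both strands for GTTGCC (RFX), GTAAACA (forkhead), CACGTG (E-box) and TTANGTAA (D-box). The only match was GTTGCC in TEKT1, which began 39 bases before the start on the strand of the gene. Only the letters given were searched, so sites of the same factors with other letters were not looked for in any of the 4 windows. The lack of a match is therefore not the lack of a site. Among all 33469 promoter windows of the table, 9.9% held GTTGCC, 3.2% GTAAACA, 5.6% CACGTG and 2.0% TTANGTAA. A match is a description of these letters in this window and says nothing of binding.

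CFAP126 was up-regulated in the light phase by 44.6%, and DYNLRB2 by 27.5%, while TEKT1, CETN2 and RSPH1 did not pass the test. Differences were tested with limma on log2 of scaled TPM plus 0.5, with Benjamini-Hochberg adjustment (FDR) over the 12513 genes whose mean reached 1 TPM, and a gene counted as changed at an FDR below 0.05. A negative log2 fold change is higher in the light phase, as in the study. All 5 members passed the filter, each through both phases. Of them, 2 were higher in the light phase and 0 higher in the dark by limma, where an unadjusted exact permutation p below 0.05 was reached by 3 members, all higher in the light phase. Over all tested genes, 8.1% were higher in light and 9.52% higher in dark. The median log2 fold change of the 5 members was -0.14, beside -0.007 over all tested genes, and all 5 estimates were below 0.

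**Figure D1:**
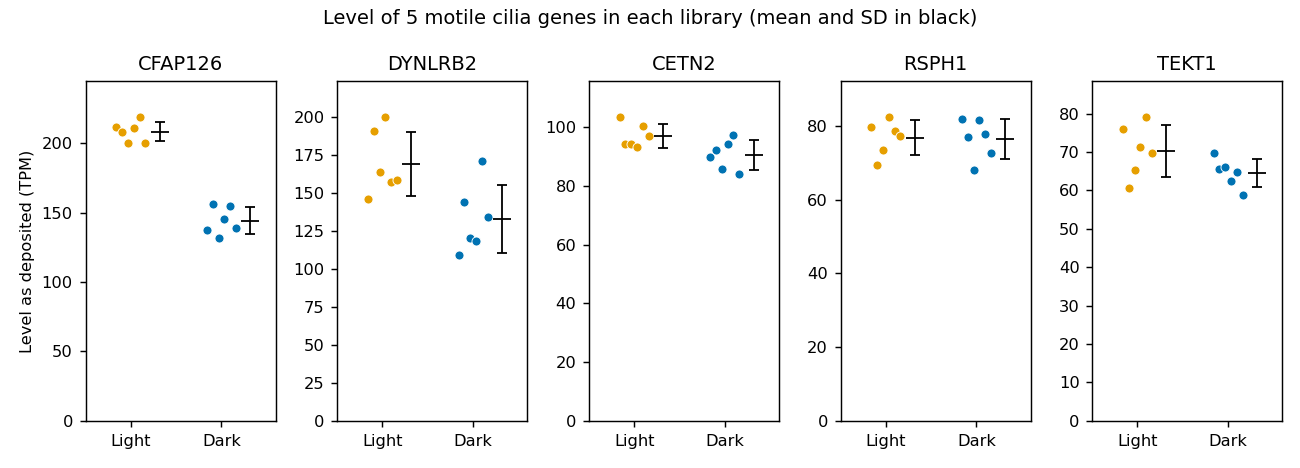
Level in TPM as deposited of the 5 members in the 6 light (orange) and 6 dark (blue) libraries, 1 point per rat, with the mean and SD in black and every axis starting at 0. The CFAP126 points of the phases stand apart (200.38 to 218.58 against 132.05 to 156.08 TPM), and those of the other members overlap.

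The first group of members are parts of the axoneme. CFAP126, also called Flattop (ENSRNOG00000034221), is a protein on the inner wall of the doublet microtubules that also takes part in placing basal bodies. Its level was lowest at 200.38, median 209.4 and highest 218.58 TPM in the light libraries, and lowest at 132.05, median 142.0 and highest 156.08 TPM in the dark ones. Every light library lay above every dark library. The means were 208 ± 7.05 TPM (SD, n = 6) in light libraries and 144 ± 9.76 TPM (SD, n = 6) in dark libraries. The log2 fold change was -0.55 with an SE of 0.05 (95% interval -0.66 to -0.44, limma FDR = 1.79e-05). The two-sided exact permutation test gave p = 0.00216, the smallest p that 6 against 6 libraries allow. In TPM as deposited, all light libraries lay above all dark libraries in 3.14% of all tested genes, and all dark libraries above all light libraries in 5.12%. CFAP126 was the 1 member of the 5 without overlap.

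TEKT1 (ENSRNOG00000014973) codes for a tektin, a filament-forming protein that runs along the doublet microtubules. It ranged from 60.69 over a median of 70.44 to 78.99 TPM in light and from 58.8 over 65.23 to 69.63 TPM in dark libraries. The phases overlapped, and the lowest light library, replicate 2, lay inside the range of the dark libraries. The means were 70.3 ± 6.75 and 64.5 ± 3.67 TPM, and the log2 fold change was -0.14 with an SE of 0.07 (95% interval -0.29 to 0.02, limma FDR = 0.225, exact permutation p = 0.121). Without light replicate 2 the log2 fold change was -0.19 and the limma FDR 0.032.

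RSPH1 (ENSRNOG00000057862) codes for a protein of the radial spoke head. Its level was 69.4 to 82.33 TPM (median 78.09) in light and 68.01 to 82.0 TPM (median 77.52) in dark libraries. The phases covered nearly the same range. The means were 76.8 ± 4.69 and 76.6 ± 5.38 TPM, and the log2 fold change was -0.02 with an SE of 0.07 (limma FDR = 0.858, exact permutation p = 0.749). Its 95% interval, -0.17 to 0.12, lay wholly above the interval of CFAP126. Its sign was not fixed, since the estimate was 0.01 without light replicate 4 and 0.01 without dark replicate 3.

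DYNLRB2 (ENSRNOG00000012450) stands for transport. It codes for a roadblock-type light chain of cytoplasmic dynein, a motor of which one form carries cargo back from the tip of the cilium. The light libraries ranged from 145.82 over a median of 160.9 to 199.43 TPM, and the dark libraries from 108.89 over 127.1 to 170.66 TPM. The phases overlapped: dark replicate 5, at 170.66 TPM, lay above 4 of the light libraries, and light replicate 4 was the highest of all. The means were 169 ± 21.0 TPM in light and 133 ± 22.4 TPM in dark libraries, and the log2 fold change was -0.37 with an SE of 0.11 (95% interval -0.61 to -0.13, limma FDR = 0.0343, exact permutation p = 0.0195). The call was lost without light replicate 2 (limma FDR = 0.0597), light replicate 4 (0.0686), light replicate 6 (0.0553), dark replicate 1 (0.0709), dark replicate 3 (0.0751), dark replicate 4 (0.0711) or dark replicate 6 (0.0587), and without a filter on low genes (0.0554). Its spread between rats was the widest of the 5 members.

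CETN2 (ENSRNOG00000059593) represents the base of the cilium. It codes for a centrin, a calcium-binding protein of centrioles and basal bodies that is also part of a DNA repair complex outside the cilium. Its level ranged from 93.32 over a median of 95.6 to 103.36 TPM in light and from 84.03 over 91.03 to 97.27 TPM in dark libraries. The ranges overlapped, although 4 dark libraries lay below every light library. The means were 97.1 ± 4.02 and 90.6 ± 5.06 TPM, and the log2 fold change was -0.12 with an SE of 0.05 (95% interval -0.22 to -0.02, limma FDR = 0.109, exact permutation p = 0.0368). Without light replicate 2 the log2 fold change was -0.14 and the limma FDR 0.0492.

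By their mean over the 12 libraries, the levels fell in the order CFAP126 (176.2 TPM), DYNLRB2 (150.9 TPM), CETN2 (93.85 TPM), RSPH1 (76.71 TPM) and TEKT1 (67.42 TPM). CFAP126 lay above DYNLRB2 in all 6 light libraries and in 5 of 6 dark libraries, so that these neighbours did not stand apart in the dark phase. DYNLRB2 lay above CETN2, and CETN2 above RSPH1, in each of the 12 libraries. RSPH1 and TEKT1 were the other pair of close neighbours, with RSPH1 higher in 11 of 12 libraries.

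The members did not change in the same measure. A ratio of a pair of genes within a library does not depend on how the library is scaled, so the log2 ratio of each pair was compared between the phases with the two-sided exact permutation test (10 pairs, p not adjusted). The exact permutation p was below 0.05 in 4 of them, 3 of which held CFAP126. The log2 ratio of RSPH1 to CFAP126 went from -1.44 ± 0.08 in light to -0.91 ± 0.1 in dark libraries, a difference of 0.53 (n = 6 each, exact p = 0.00216). For TEKT1 to CFAP126 the difference was 0.41 (exact p = 0.00216), although both proteins belong to the doublet microtubules. The log2 ratio of CFAP126 to CETN2 was 1.1 ± 0.05 in light and 0.67 ± 0.06 in dark libraries, a difference of -0.43 (exact p = 0.00216). In these 3 pairs no light library reached the range of the dark libraries, and the exact p was at most 0.00433 without any single library.

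Against DYNLRB2, the other member that passed the test, CFAP126 changed by -0.18 on the log2 scale (exact p = 0.123). The ratio of RSPH1 to DYNLRB2 rose by 0.35 towards the dark phase (exact p = 0.0303). This call was lost without light replicate 2, light replicate 4, dark replicate 1 or dark replicate 4 (exact p = 0.0606 each), without light replicate 3 (0.0563) or without dark replicate 3 (0.0519). The other 5 pairs had exact p-values of 0.0671 to 0.753, with the smallest difference, -0.02, between TEKT1 and CETN2. Of these, RSPH1 to TEKT1 reached exact p = 0.00433 without dark replicate 3, RSPH1 to CETN2 reached 0.00866 without light replicate 4 and 0.0476 without dark replicate 3, and DYNLRB2 to CETN2 reached 0.039 without light replicate 1 and 0.0346 without dark replicate 5.

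**Figure D2:**
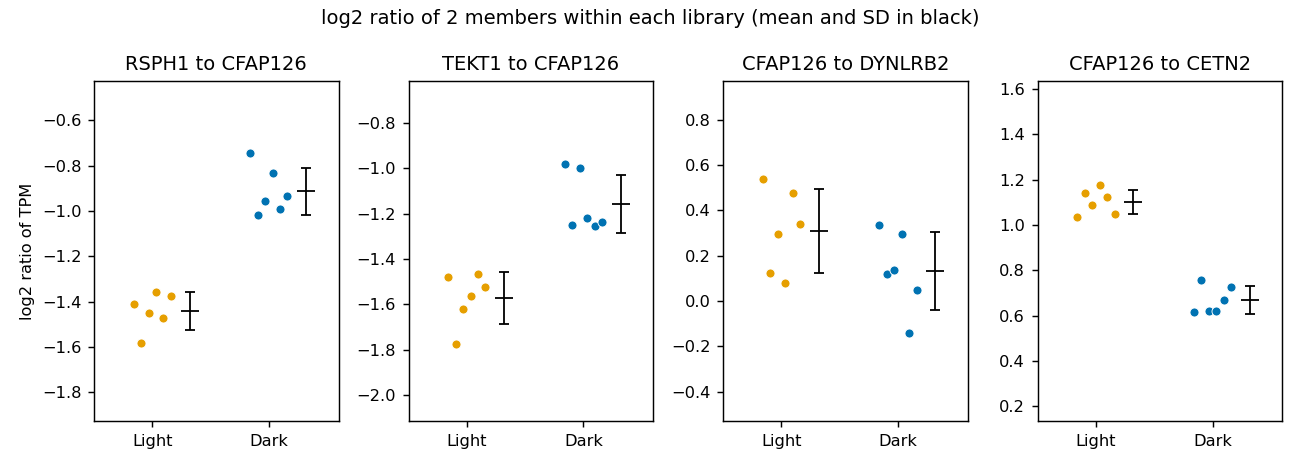
log2 ratio of TPM between CFAP126 and each of the other 4 members within each library, in the 6 light (orange) and 6 dark (blue) libraries, with the mean and SD in black; each panel spans the same height on the log2 scale. The phases stand apart for RSPH1, TEKT1 and CETN2 (exact p = 0.00216 each) and overlap for DYNLRB2 (exact p = 0.123).

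Within a phase, the members were compared across rats on log2 of scaled TPM, so that all members of a library share its scaling factor. Over the 10 pairs in each phase, 20 relations in all, Pearson's r ranged from -0.31 to 0.97, with 16 above 0. The exact permutation p was below 0.05 in 4 relations, all in the light phase, and after adjustment over the family in 0 (lowest adjusted p = 0.111, n = 6 libraries). The highest was between TEKT1 and CETN2 in the light phase (r = 0.97, exact p = 0.0194, adjusted p = 0.13, Spearman's rho = 0.83, exact p = 0.0583, adjusted p = 0.292), and without the 2 libraries farthest from the median of TEKT1 it was 0.46. The sign was kept in 11 of 20 relations when those libraries were left out. On the mean of the members' standardized deviations from their phase mean, light replicate 2 was lowest at -1.23 and light replicate 4 highest at 1.1. These libraries also had the highest and the lowest scaling factor (1.0508 and 0.9392). In TPM as deposited, light replicate 2 was the lowest light library for RSPH1 and TEKT1 only. Light replicate 4 was the highest for RSPH1 and DYNLRB2 only, and the lowest for CETN2 (93.32 TPM). The part of the scaling in these relations was not tested.

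The other genes of the cilium were taken from lists by role. They hold 191 genes beside the members, of which 49 had an identifier. Some identifiers came from the study's list of expressed genes, which was not chosen on a phase difference but was held only down to a certain level in the light phase, and so favours genes that are high in that phase. From it came the identifiers of all 5 members and of 26 other cilia genes. Of these 26, 9 were higher in light and 0 higher in dark by limma, and 17 did not pass the test. Unadjusted p was below 0.05 in 14, all of them higher in the light phase. The median log2 fold change was -0.14, and 25 of 26 estimates were below 0; the exception, EFCAB1, named after its values were seen, had 0.05 (limma FDR = 0.809), and -0.04 without dark replicate 3. In TPM as deposited, all light libraries lay above all dark libraries in 7 of the 26, and the reverse held in 0. On the scaled values used by limma, CFAP36 of these 7 overlapped, and CFAP69, not among the 7, did not (exact permutation p = 0.0173 and 0.00216).

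The same figures over all 1983 tested genes of that held list carry the same selection. There, 13.8% were higher in light and 9.13% higher in dark by limma. In TPM as deposited, all light libraries lay above all dark in 6.71%, and all dark above all light in 6.76%. Their median log2 fold change was -0.033, with 61.0% of estimates below 0. Among those whose mean reached 60 TPM, which lie away from the end of the held list, 5 of 16 cilia genes were higher in light and 0 higher in dark, beside 12.6% and 9.86% of the 1663 listed genes at that level. The median of the 16 was -0.14. These lists were drawn up with earlier results known, and the counts are a description without a test of the list.

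**Figure D3:**
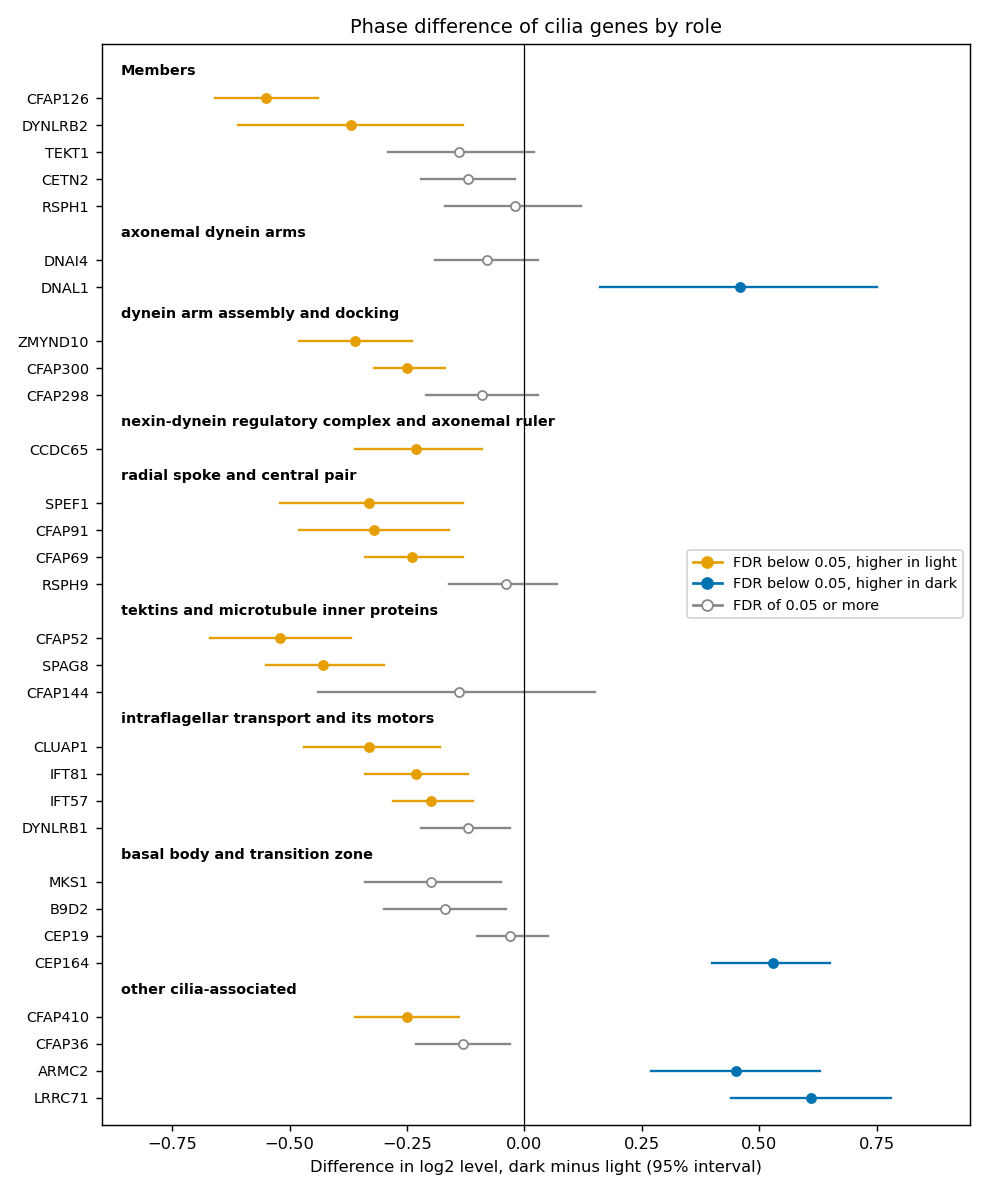
Difference in log2 level, dark minus light, with its 95% interval, for the 5 members and genes named by rule from each role list, without those named after their values were seen; filled orange points were higher in the light phase and filled blue points higher in the dark phase at an FDR below 0.05, and open grey points did not pass. CFAP126 lies farthest to the left at -0.55, next to CFAP52 at -0.52, and the 4 blue points (CEP164, DNAL1, ARMC2 and LRRC71) were paired through the list of differentially expressed genes.

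The nearest relatives of CFAP126 and TEKT1 by place are the tektins and other proteins inside the doublet microtubules. Of 27 listed, 6 had an identifier, and of these 4 were higher in the light phase and 2 did not pass, with the lowest median log2 fold change of the role lists, -0.29. CFAP52 was 64.3 ± 5.62 TPM in light and 45.1 ± 2.76 TPM in dark libraries (log2 fold change -0.52, limma FDR = 0.000358). SPAG8 was 76.1 ± 2.66 and 57.3 ± 5.25 TPM (-0.43, limma FDR = 0.000303). CFAP144, the most abundant of the list with 156 ± 27.1 and 143 ± 25.5 TPM, did not pass (limma FDR = 0.522). CFAP20, which also passed, was named after its values were seen (83.4 ± 4.25 and 68.8 ± 3.72 TPM, -0.29, limma FDR = 0.00119).

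Around RSPH1, the radial spoke and central pair list had 8 of 27 genes with an identifier, of which 3 were higher in the light phase and 5 did not pass. From the list of expressed genes came 4 of these identifiers, and of those 4 genes only 1, CFAP69, passed. CFAP91 and SPEF1 were paired only through the list of differentially expressed genes. RSPH9, another protein of the spoke head, lay at 224 ± 11.5 and 219 ± 7.82 TPM (log2 fold change -0.04, limma FDR = 0.615). The 3 that passed were CFAP69, a central pair protein (51.5 ± 3.89 and 44.1 ± 2.17 TPM, -0.24, limma FDR = 0.00524), CFAP91, at the base of the spokes (11.0 ± 0.632 and 8.88 ± 1.1 TPM, -0.32, limma FDR = 0.0104), and SPEF1, which bundles the central pair microtubules (23.1 ± 2.8 and 18.5 ± 1.5 TPM, -0.33, limma FDR = 0.0237). The call of SPEF1 was lost without dark replicate 3 (0.0551) or dark replicate 6 (0.0524).

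Around DYNLRB2, 12 of 33 genes of intraflagellar transport and its motors had an identifier. Of these, 5 were higher in the light phase, 1 in the dark phase and 6 did not pass, but the identifiers of 8 of the 12 came only from the list of differentially expressed genes. Its paralog DYNLRB1, the light chain found in most cells, was the most abundant at 335 ± 12.9 and 311 ± 7.94 TPM, and its difference of -0.12 did not pass (limma FDR = 0.0747). It passed with TPM as deposited (0.045), with quantile normalization (0.0187) and with sample weights (0.0436). The transport particle proteins CLUAP1 (-0.33, limma FDR = 0.00517), IFT57 (-0.20, 0.00378) and IFT81 (-0.23, 0.00697) were higher in the light phase. Named after their values were seen, WDR35 (-0.15, limma FDR = 0.0101) and IFT80 (-0.16, 0.0282) were higher in the light phase and WDR19 (0.18, 0.0147) in the dark phase. The call of IFT80 was lost without any one of light replicates 4, 5 and 6 and dark replicates 1, 2 and 3 (0.0508 to 0.0619).

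Around CETN2, 7 of 24 basal body and transition zone genes had an identifier, and 0 were higher in the light phase, 1 was higher in the dark phase and 6 did not pass. From the list of expressed genes came 3 of these identifiers, and 0 of those 3 genes passed. MKS1, B9D2 and CEP164 were paired only through the list of differentially expressed genes. The transition zone genes MKS1 (-0.20, limma FDR = 0.065) and B9D2 (-0.17, 0.0745) had unadjusted p of 0.0128 and 0.0156 in the limma fit. MKS1 passed without light replicate 2 (0.00749), with TPM as deposited (0.0489) and with sample weights (0.0156). CEP19, the most abundant of the list, lay at 65.6 ± 4.09 and 65.1 ± 1.63 TPM (limma FDR = 0.678). CEP164, which anchors the basal body to the membrane through its distal appendages, went the other way, from 8.34 ± 0.884 TPM in light to 12.3 ± 1.0 TPM in dark libraries (log2 fold change 0.53, limma FDR = 9.79e-05).

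The dynein arms themselves were poorly covered. Of 18 listed genes 2 had an identifier: DNAI4, an intermediate chain, did not pass (-0.08, limma FDR = 0.303), and DNAL1, a light chain of the outer arm, was higher in the dark phase (22.8 ± 5.72 and 31.3 ± 4.25 TPM, 0.46, limma FDR = 0.0368). DNAL1 was paired only through the list of differentially expressed genes. The call of DNAL1 was lost without any one of light replicates 4, 5 and 6 and dark replicates 1, 3, 5 and 6, with a limma FDR of 0.0589 to 0.077, and without a filter on low genes (0.0595). Of the factors that assemble dynein arms in the cytoplasm, 3 of 18 had an identifier. ZMYND10 (73.8 ± 3.99 and 58.3 ± 4.51 TPM, -0.36, limma FDR = 0.000843) and CFAP300 (257 ± 10.1 and 219 ± 4.41 TPM, -0.25, limma FDR = 0.000458) were higher in the light phase, and CFAP298 did not pass (-0.09, limma FDR = 0.284). CCDC65, of the nexin-dynein regulatory complex, was the only one of 11 with an identifier (62.3 ± 2.74 and 53.9 ± 4.15 TPM, -0.23, limma FDR = 0.0231), and its call was lost without light replicate 4 or 5 (0.0524 each) or dark replicate 3 (0.0526).

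Of 20 other cilia-associated genes 10 had an identifier, with 4 higher in the light phase, 2 in the dark phase and 4 that did not pass. From the list of expressed genes came 4 of these identifiers, and of those 4 genes only 1, CAPSL, passed. The other genes that passed were paired only through the list of differentially expressed genes. CFAP410, needed for cilium assembly, was higher in the light phase (30.4 ± 1.38 and 25.9 ± 1.49 TPM, -0.25, limma FDR = 0.00499). CFAP36 was 205 ± 9.64 and 189 ± 5.05 TPM. In TPM as deposited its phases barely stood apart (lowest light library 195.52, highest dark library 195.03 TPM). On the scaled values they overlapped, with an exact permutation p of 0.0173, where phases that stand apart give 0.00216. CFAP36 did not pass (-0.13, limma FDR = 0.0707), and passed without light replicate 2 (0.0183), with TPM as deposited (0.0493) and with sample weights (0.0239). Named after their values were seen, IQUB (-0.25, limma FDR = 0.0104), CAPSL (-0.37, 0.0244) and MAK (-0.15, 0.0458) were also higher in the light phase. The call of CAPSL was lost without any one of light replicates 4, 5 and 6 and dark replicate 6 (0.052 to 0.0546), and that of MAK without any one library other than light replicate 2 (0.052 to 0.0951), with TPM as deposited (0.0637) and without a filter (0.0588). LRRC71, a leucine-rich repeat protein (16.2 ± 2.5 and 25.2 ± 2.25 TPM, 0.61, limma FDR = 0.000222), and ARMC2, an armadillo repeat protein (11.4 ± 1.63 and 15.9 ± 1.25 TPM, 0.45, limma FDR = 0.00266), were higher in the dark phase. Of the 14 genes of the multiciliated cell program, FOXJ1 included, 0 had an identifier.

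Over all 49 other cilia genes, 19 were higher in the light phase, 5 in the dark phase and 25 did not pass. The 23 whose identifier came only from the lists of differentially expressed genes, 10 of them higher in the light and 5 in the dark phase, had been chosen on these samples and are not independent evidence of a direction. All 5 genes higher in the dark phase belong to these 23.

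Other measures moved with the phase. Summed FPKM over summed TPM of a library, which is higher where reads fall on shorter transcripts, was 0.9528 to 0.9873 in the light libraries and 0.9338 to 0.9603 in the dark libraries. With this ratio as a covariate, CFAP126 kept its call (log2 fold change -0.40, limma FDR = 0.005), DYNLRB2 lost it (-0.23, 0.535), and the estimates of TEKT1, CETN2 and RSPH1 turned to 0.04, 0.01 and 0.19, none of which passed (0.871, 0.931 and 0.226). Among the other cilia genes, 2 of the 24 calls were left, SPAG8 (limma FDR = 0.0471) and CEP164 (0.0304). Over all tested genes, 343 passed with the covariate and 2204 without it, and how many passed in both was not counted. The sizes of the lost differences went apart. Some were about as large as before, or larger, with a larger SE: the log2 fold change of CLUAP1 was -0.32 with an SE of 0.11 (limma FDR = 0.146), of CFAP69 -0.23 (SE 0.08, 0.153), of ZMYND10 -0.31 (SE 0.09, 0.0904), of ARMC2 0.41 (SE 0.14, 0.133), and of CFAP91 -0.42 (SE 0.12, 0.0802). Others came near 0, DNAL1 at 0.05 (SE 0.17, limma FDR = 0.903) and CCDC65 at -0.04 (SE 0.07, 0.821).

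**Figure D4:**
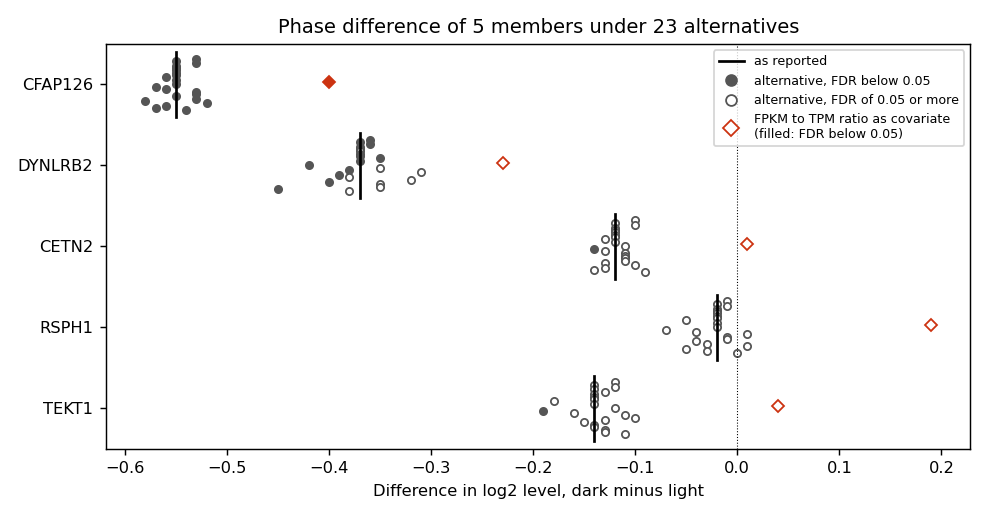
Difference in log2 level, dark minus light, of each member as reported (black line) and under 23 alternatives (points, filled where the FDR was below 0.05), with the fit that has the FPKM to TPM ratio as covariate drawn as a red diamond. The CFAP126 points lie between -0.58 and -0.40 and are all filled, and the diamonds lie to the right of the black line for each member.

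Markers of other cell types were also compared. RARRES2, the paired ependyma marker, was 49.07 to 60.73 TPM in light and 46.51 to 59.63 TPM in dark libraries (limma FDR = 0.724), and the part of ependymal cells in the members' levels was not tested. Of the 10 epithelial markers, KL, CLIC6 and OTX2 were higher in the dark phase, AQP1 and SLC4A5 in the light phase, and 5 did not pass. PTPRC, 1 of 7 macrophage markers, was 1.93 to 2.97 TPM in the light and 1.27 to 2.14 TPM in the dark phase (limma FDR = 0.0497). Of other lists, DCN (fibroblasts, 1 of 6 markers, 74.09 to 146.8 and 81.6 to 155.3 TPM), PLVAP (endothelium, 1 of 5, 58.5 to 124.3 and 56.66 to 96.81 TPM) and 4 of 7 red blood cell genes (in sum 7506 to 29700 and 4319 to 11180 TPM) did not pass. Their part in the members' differences was not tested.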

How the data were processed

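RNA sequencing libraries from the choroid plexus of 12 rats, 6 per phase, were used. Per the labels and methods, the authors mapped reads to Rnor_6.0 with STAR 2.7.9a and quantified genes with RSEM 1.3.3, and tested differential expression with DESeq2 on counts. The TPM values were deposited by the authors per gene and library and were scaled here as below. The FPKM values, also deposited by the authors from RSEM, entered only as their sum over that of TPM in each library. TPM hold no depth, so a count model was not used and precision was taken from the spread between rats, which is all that the p-values measure.

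Each library was divided by a trimmed mean of ratios (30% of ratios and 5% of levels trimmed at each end), with factors of 0.9392 to 1.0508. Of 32883 genes, 12513 whose mean reached 1 TPM were tested with limma 3.58.1 (R 4.3.3) on log2(TPM + 0.5), with a variance trend, phase as the only term and Benjamini-Hochberg adjustment at 0.05. The fold changes are on this scale, which understates those of low genes. Exact permutation tests over the 924 splits of 6 against 6 libraries and figures were made with Python 3.11.15, scipy 1.17.1, numpy 2.4.6, pandas 2.3.3 and matplotlib 3.10.9. On simulated data over 12513 genes for dark against light, 79% of 200 changed genes were recovered and 12 unchanged genes were called. The noise was drawn independently for each gene. The simulated differences were all larger than those estimated for TEKT1, CETN2 and RSPH1, so this share does not give the power for differences of that size. No 2 libraries were identical (0 pairs), with correlations of 0.9584 to 0.9833.

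Symbols were paired with identifiers through the study's supplementary lists of expressed and of differentially expressed genes, held in part. The members and lists were chosen with earlier results of these data known. Named were the members and, of each role list, up to 3 other genes with the smallest p and the 1 with the highest mean TPM, and the 5 genes most like the members; other genes are marked as named after their values were seen. Alternatives were other scalings, pseudocounts of 0.1 and 1 TPM, no filter and a filter at 5 TPM, a replicate block, sample weights, robust variances, the FPKM to TPM ratio as covariate, and leaving out each library. The subset whose mean reached 60 TPM was added after seeing the data. Fold changes and p-values in the authors' lists were not used. Some genes that this rule or the marker lists hold are not reported here.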

Additional observations from a re-analysis of the deposited data

Results flagged for a closer look

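Each phase of each named cilia gene was searched for a library far from the other 5 of its group, by the gap to the nearest library over the range of the group, against Dixon's limit at 95%. Of 78 groups, 4 were past it, beside about 3.9 (1 in 20) by chance, and none belonged to a member. In the light phase, B9D2 was 39.79 TPM in replicate 3, with the next library at 37.98 TPM (gap 0.764 of the range). SPEF1 was 28.52 TPM in light replicate 4, with the next at 23.1 TPM (0.667). In the dark phase, CFAP298 was 126.55 TPM in replicate 6, with the next at 134.9 TPM (0.66), and EFCAB1 was 218.62 TPM in replicate 3, with the next at 161.54 TPM (0.681).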

How the results depend on the processing

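CFAP126 kept its direction and its call under all 23 alternatives (log2 fold change -0.58 to -0.40). With the FPKM to TPM covariate, 343 genes passed in all, 1 member, 2 other cilia genes and 1 of those from the list of expressed genes higher in the light phase, and the log2 fold change was -0.23 for DYNLRB2, 0.04 for TEKT1, 0.01 for CETN2, 0.19 for RSPH1, 0.21 for CFAP144, 0.05 for CFAP298, 0.02 for CFAP36, 0.01 for DYNLRB1 and 0.08 for RSPH9, where the cause was not tested. Without a filter 1 member passed, DYNLRB2 staying at -0.37, with more genes in the adjustment. Without 1 library at a time, 1 to 3 members passed, and the log2 fold change was -0.45 to -0.31 for DYNLRB2, -0.19 to -0.10 for TEKT1, -0.14 to -0.09 for CETN2, -0.07 to 0.01 for RSPH1, -0.04 to 0.12 for EFCAB1 and -0.05 to 0.01 for the ratio of TEKT1 to CETN2. At a mean of 60 TPM or more, 5 other cilia genes from the list of expressed genes were higher in the light phase instead of 9, of fewer genes. Same-numbered libraries of the phases deviated together with correlations of -0.107 to 0.047, and none correlated best with its own number, so they share only a number. With a replicate block, 1574 instead of 2204 genes passed, both member calls stayed, and of the named genes DNAL1 (limma FDR = 0.074) and MAK (0.116) lost theirs. The lack of identifiers for 4 of 9 members and for 5 of 6 ependyma markers, and of a depth in reads, limits what can be said.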

Other observations

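Among 3553 tested genes outside the role lists with a symbol, the 5 most like the mean profile of the members, each phase centred on its mean, were CIB2 (r = 0.88, rho = 0.90), SLC38A3 (0.88, 0.87), FDX1 (0.87, 0.89), XRCC1 (0.86, 0.82) and ISCA1 (0.86, 0.93), over 12 libraries that share their scaling. CIB2 codes for a calcium-binding protein, SLC38A3 for a glutamine transporter, FDX1 and ISCA1 for mitochondrial iron-sulfur proteins and XRCC1 for a DNA repair scaffold. Their phase differences went both ways: SLC38A3 (log2 fold change -0.61, limma FDR = 0.000311) and XRCC1 (-0.16, 0.0118) were higher in the light phase, CIB2 was higher in the dark phase (0.25, 0.0445), and FDX1 (-0.11, 0.323) and ISCA1 (-0.07, 0.2) did not pass. Of the 49 other cilia genes, 38 (77.6%) had an r above 0 to this profile, with a median of 0.45, beside 59.0% and a median of 0.09 over the 3553 genes, and CCDC65 had the highest at 0.87. Among the light libraries, replicate 2 was lowest and replicate 4 highest both on this profile (-1.23 and 1.1) and in the FPKM to TPM ratio (0.9528 and 0.9873). In the dark phase the libraries at the ends were not the same on both, but lay close. Replicate 3 was lowest on the profile (-0.87, ratio 0.9397), next to replicate 6 (-0.83), which had the lowest ratio (0.9338). Replicates 2, 4 and 5 were above 0 on the profile (0.71, 0.33 and 0.85) and had the highest dark ratios (0.9517, 0.9603 and 0.9475). The part of this ratio, or of the shared scaling, in the likeness was not tested.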
